A study of Mus musculus with 2 samples.

Results

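The windows described here are 100 bp stretches of mouse autosomes with 3 to 10 CpGs that held at least 20 captured reads in the Kaiso knockout library and 0 in the wildtype library. They were chosen by these 2 measured counts, which are given below as a description. They were 5956 of the 815649 listed windows of chromosomes 1 to 19 in that CpG range, or 0.730%, out of 2537435 windows listed in all. They covered 595.6 kb and are called silent windows below, because no wildtype read was counted in them. Methylated DNA was captured from sheared testis DNA with the methyl-CpG binding domain of MBD2 and sequenced in 2 libraries. One came from a C57BL/6 Kaiso KO testis, labelled as generation 3 offspring and male sterile, and one from a C57BL/6 wildtype testis. The description of the knockout sample also calls its testis WT, and the genotype label was followed. The ages of the mice, the deleted part of the allele and any pooling of animals are not given in the sources used here.

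A CpG is a cytosine followed by a guanine, the site at which mammalian DNA is methylated. Most CpGs of the genome are methylated, whereas CpG-rich promoters and other regulatory stretches usually are not, and MBD2 capture recovers a fragment more readily the more methylated CpGs it holds. Kaiso, the product of Zbtb33, is a zinc finger protein that binds methylated CpGs and a sequence without CpGs, and it recruits repressors of transcription. In a testis most DNA belongs to germ cells, and Sertoli cells, Leydig cells and blood cells contribute the rest. A library of captured DNA cannot tell a change of methylation within cells from a change in the mix of cells.

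The knockout library held 98549116 reads and the wildtype library 87710791. Zbtb33, on chromosome X and outside the windows described here, had 83 knockout and 303 wildtype counts in its 16 listed windows, a log2 ratio of -2.04 (95% interval -2.80 to -1.31). This DNA measure checks the label only weakly. With 1 library per genotype there is no replicate check, so no test of genotype was made and the intervals cover counting error only. The table lists windows with a deposited p below 0.05, so shares are shares of listed windows. The deposited p-values of the silent windows rest on the counts that the rule used and on 1 library per genotype. They are therefore no separate support and are not given.

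The counts that chose the windows were moderate. Knockout counts ran from 20 to 109 with a median of 30, and wildtype counts were 0 throughout. The median knockout RPKM was 3.04, with 2.03 as the lowest value and 11.1 as the highest. Of the windows 1623 (27.2%) held fewer than 25 knockout counts, 1534 held 40 or more and 298 held 60 or more. A window at the minimum of 20 lay 5.93-fold above a floor of 3 wildtype counts per library read, a size that the rule itself fixed. Just inside the limit 359 windows had 20 knockout counts, and just outside it 423 had 19. With 1 wildtype count in place of 0, 4991 windows met the other limits, and with 2 there were 7581. The windows with 1 wildtype count had a median of 34 knockout counts and a mean of 4.19 CpGs, so those just outside the limit resembled those inside it. The converse rule, 0 knockout and at least 20 wildtype counts, was met by 295 windows, or 0.0362%, of which 277 held 3 CpGs and 1 held 5 or more.

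The sequences of 8 silent windows are shown because they lie directly upstream of a gene's start site, where a promoter would be read. They have the highest knockout counts among the 16 windows that lie wholly upstream of a protein-coding start site, outside every annotated gene, among the promoters of the RefSeq table (GRCm38.p6, the assembly also called mm10). That choice was made after the values were seen. Each is written 5′ to 3′ on the strand of its gene, and the capitals mark the CpGs.
Iho1: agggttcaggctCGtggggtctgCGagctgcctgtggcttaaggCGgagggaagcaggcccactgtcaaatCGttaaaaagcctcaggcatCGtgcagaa
Igfbp6: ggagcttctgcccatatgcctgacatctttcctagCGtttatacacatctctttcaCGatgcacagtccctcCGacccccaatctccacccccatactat
Ccdc170: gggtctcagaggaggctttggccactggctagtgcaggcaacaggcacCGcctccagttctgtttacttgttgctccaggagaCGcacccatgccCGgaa
Crb2: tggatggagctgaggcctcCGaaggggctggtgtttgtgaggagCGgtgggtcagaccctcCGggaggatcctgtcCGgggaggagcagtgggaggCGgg
Elf3: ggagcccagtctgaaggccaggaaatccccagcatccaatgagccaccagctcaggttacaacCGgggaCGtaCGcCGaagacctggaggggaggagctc
Ttc30a2: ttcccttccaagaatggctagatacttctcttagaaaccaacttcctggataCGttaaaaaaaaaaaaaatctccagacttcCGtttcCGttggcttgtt
Coq10a: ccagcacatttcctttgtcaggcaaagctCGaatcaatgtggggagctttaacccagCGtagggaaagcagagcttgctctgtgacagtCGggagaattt
Tulp1: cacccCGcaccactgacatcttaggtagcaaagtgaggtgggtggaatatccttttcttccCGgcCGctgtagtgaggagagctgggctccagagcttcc

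Iho1, a gene of meiotic double-strand break formation, had 52 knockout and 0 wildtype counts in the window at chr9:108431901-108432000, on the minus strand and 75 to 174 bases upstream of the start site. Igfbp6, the gene of an insulin-like growth factor binding protein, had 50 and 0 at chr15:102144001-102144100 on the plus strand. The window of Ccdc170 had 46 and 0 at chr10:4482401-4482500 on the plus strand, and that of Crb2, a gene of apical cell polarity, had 36 and 0 at chr2:37776101-37776200 on the plus strand. All 4 carried few CpGs, 5 in Iho1 and Crb2 and 3 in the other two. The remaining windows held 35 knockout counts for Elf3, an epithelial transcription factor gene (chr1:135258501-135258600, minus), and 35 for Ttc30a2, a gene of ciliary transport (chr2:75978201-75978300, minus). Coq10a had 34 (chr10:128370101-128370200, minus), and Tulp1, a photoreceptor gene, had 33 (chr17:28365301-28365400, minus), each with 0 wildtype counts. None of the 8 sequences contained CGCG, the doubled CpG that Kaiso binds when methylated.

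The silent windows held somewhat more CpGs than other listed windows of the range. They averaged 4.32 CpGs, against 4.02 in all listed windows with 3 to 10, and the median was 4 in both. Windows with 5 or more CpGs made up 33.1% of the silent ones and 26.1% of the listed ones. Even so, 2447 silent windows (41.1%) held 3 CpGs, the lowest number allowed, so the label CpG-rich describes the rule more than a typical window. Windows with the same range of knockout counts and at least 20 wildtype counts, 252125 in number, averaged 3.67 CpGs.

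The share of listed windows that were silent was higher in each CpG class than in the one before. It was 0.612% with 3 CpGs (Clopper-Pearson 95% interval 0.588 to 0.637%), 0.813% with 5 (0.760 to 0.869%), 1.12% with 8 (0.956 to 1.31%) and 2.27% with 10 (1.82 to 2.79%). Intervals of some neighbouring classes, 4 and 5 CpGs among them, overlapped. The knockout count of silent windows did not follow the CpG number in this way. Its median lay between 27.5 and 32 in every class, whereas the median over all listed windows of a class lay between 78 and 132 in the knockout library and between 52 and 75 in wildtype. In the class of 3 CpGs the silent windows reached 38.5% of the listed knockout median, and in the class of 8 CpGs 20.8%. The highest count of a class, which was 109 with 9 CpGs and 65 with 10, shows the same lack of order.

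**Figure D1:**
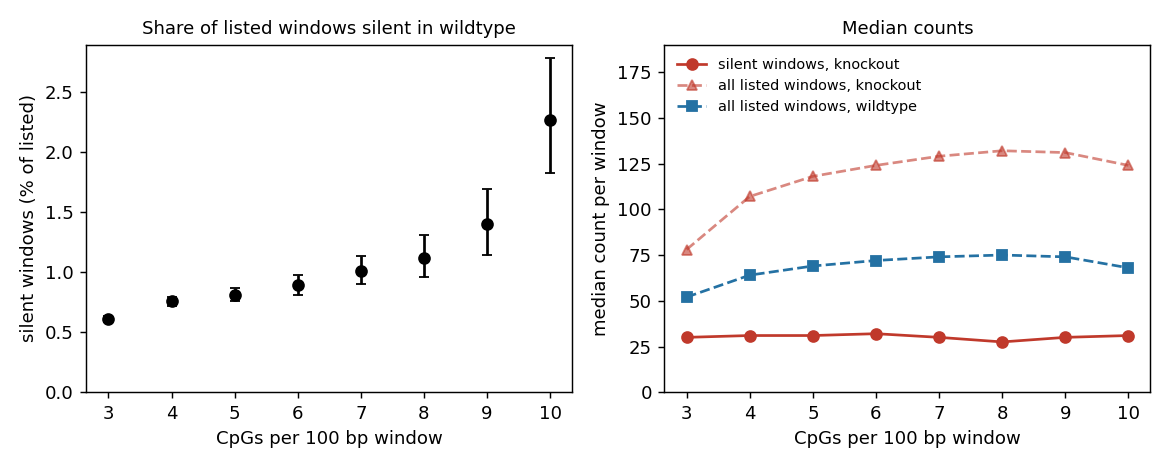
Left, silent windows as a percentage of the listed windows with the same number of CpGs, with exact 95% intervals, from 0.612% with 3 CpGs to 2.27% with 10. Right, median counts per window in silent windows (knockout, filled circles; wildtype was 0 by the rule) and in all listed windows (knockout, triangles; wildtype, squares); the silent windows stay near 30 while the listed windows lie between 52 and 132.

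Silent windows lay in short runs. Directly adjacent ones joined into 4026 runs, of which 2749 (68.3%) were single windows, 855 had 2, 275 had 3, 91 had 4 and 56 had 5 or more. The longest had 8 windows, or 800 bp. Runs of 2 or more held 3207 windows (53.8%). A fragment of the library spans several windows, so the windows of a run share reads and the run is the unit used below. Many runs were interrupted by windows with fewer than 3 CpGs. Of 409 gaps of a single window between runs, 349 were listed, all 349 had 0 wildtype counts, and 307 of those held fewer than 3 CpGs. When every adjacent listed window with 0 wildtype counts was joined, whatever its CpG number or knockout count, 3571 stretches contained a silent window. Of these 991 had 5 or more windows and 64 had 10 or more.

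The 3 longest of these stretches lay at developmental genes. At Irx1, an Iroquois homeobox gene, 26 windows of chr13:71956901-71959500 held 471 knockout and 0 wildtype counts and 109 CpGs, and 7 of them met the rule. Near Foxc1, a forkhead gene, 24 windows of chr13:31801501-31803900 held 514 knockout and 0 wildtype counts, 2746 bases from the gene. Next came 18 windows beside Meis2, a homeobox gene (chr2:115859201-115861000, 375 knockout and 0 wildtype counts, 264 bases away). Agap2 had 16 windows with 538 knockout and 0 wildtype counts, and Agap3 had 16 windows with 294 and 0, among which 1 met the rule.

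Among the runs themselves the longest, with 8 windows, lay on chr17:27325101-27325900 inside the predicted gene Gm10505, 96487 bases from Grm4, a glutamate receptor gene. Its windows held between 22 and 38 knockout counts, 249 in all, and 0 wildtype counts, with 40 CpGs. The run at Septin1, the gene of a cytoskeletal GTPase (chr7:127214701-127215400), had between 24 and 63 knockout counts in its 7 windows. Ankrd33b had between 41 and 59 in 7 windows of chr15:31297101-31297800. Gata3, a transcription factor gene of T cells and other tissues, had between 21 and 42 in 7 windows of chr2:9881101-9881800. These 7-window runs held 359, 355 and 223 knockout counts, at least 26.6-fold, 26.3-fold and 16.5-fold above a wildtype floor of 3 fragments, or 12 window counts, per run. The other runs of 7 windows lay 26085 bases from the kinase gene Pim1 and in Nbeal2, a gene of platelet granules, with 211 and 173 knockout counts. Runs of 6 windows with the highest sums lay 9739 bases from Ube2v1, in Hoxa3, in Pla2g1b, a pancreatic phospholipase gene, and in Mex3b, an RNA-binding protein gene, with 322, 249, 243 and 230 knockout counts.

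The highest knockout counts of all were at Mov10l1, the gene of an RNA helicase needed to make piRNAs, the small RNAs that silence retrotransposons in germ cells. Its windows at chr15:88982901-88983000, chr15:88983001-88983100 and chr15:88983101-88983200 held 109, 103 and 100 knockout counts and 0 wildtype counts, with 9, 5 and 6 CpGs. The first of them lay 32.3-fold above the floor of 3 wildtype counts per library read, which describes counts that the rule used. The same run went on with 83 and 55 counts. By mean count per window the highest runs were single windows in Cacna1e, a calcium channel gene (98 knockout counts), in Chd7, a chromatin remodeller gene (98), 178033 bases from S1pr1 (97), at Ccer1 (94) and 215016 bases from Id4 (92).

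**Figure D2:**
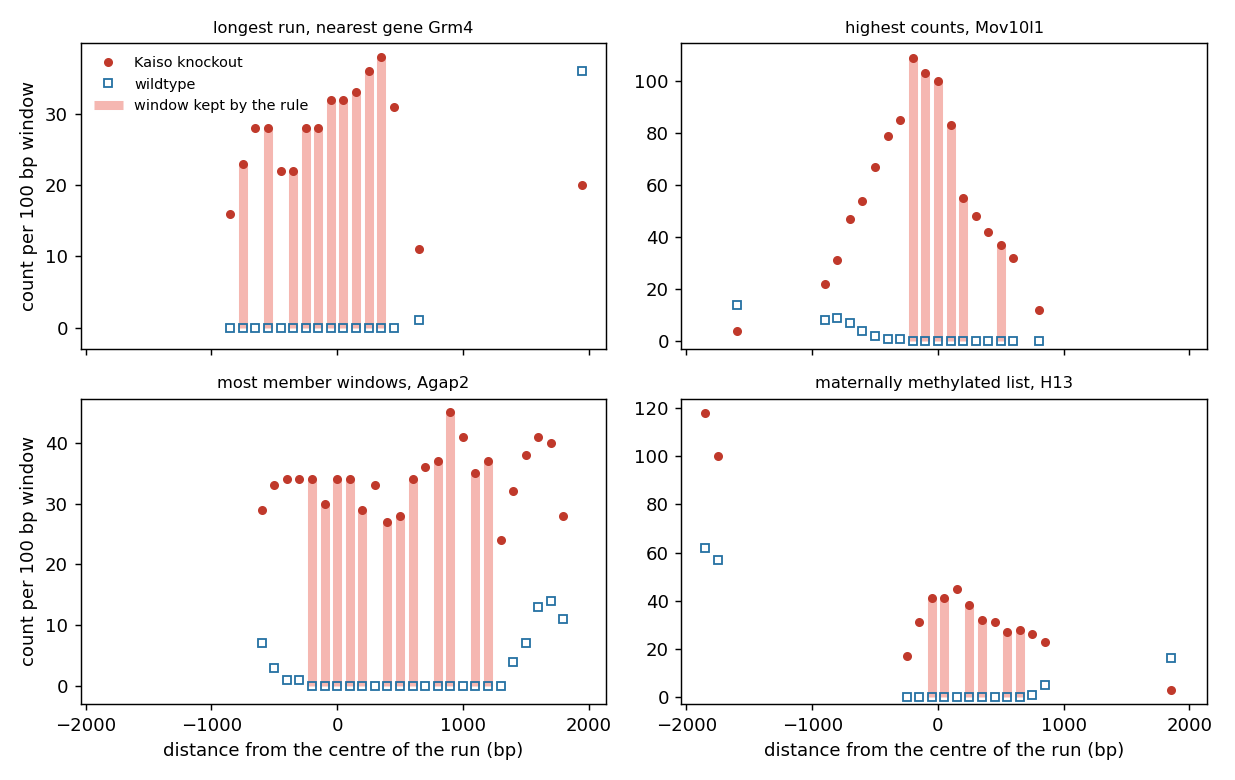
Knockout (filled circles) and wildtype (open squares) counts of the listed windows within 2000 bp of the centre of 4 runs, with pale bars for silent windows; gaps are windows that were not listed. The wildtype counts lie at 0 across each run, while knockout counts peak at 109 at Mov10l1, 45 at Agap2 and 38 at the longest run, and both libraries were read again about 2000 bp from the run in H13.

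Wildtype counts came back gradually on either side of the runs. Among listed windows directly beside a run, which are not silent windows themselves but share fragments with them, the mean was 31.5 counts in the knockout library and 0.485 in wildtype. At 400 to 500 bp the means were 37.4 knockout and 5.44 wildtype counts, at 900 to 1000 bp 47.3 and 17.97, and at 2900 to 3000 bp 54.9 and 36.4. Both libraries were thus lower beside the runs than 3 kb away, and wildtype by far the more. Within 500 bp, 19732 such windows held 657179 knockout and 48765 wildtype counts, a log2 ratio of 3.58 (3.56 to 3.61). With 0 wildtype counts set to 3, 86.7% of them showed a knockout excess of 4-fold or more. That was so for 9.26% of all listed autosomal windows and for 13.0% of those with 3 to 10 CpGs. It was also so for 87.4% of the windows within 500 bp of a window with 1 wildtype count and at least 20 knockout counts. The log2 ratio there was 3.11. The windows with 1 wildtype count were also chosen for a knockout excess, and some lay beside silent ones. Their neighbours therefore cannot show whether the excess was particular to the silent runs. Windows this close share the fragments that the rule used.

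Windows farther from a run than the stated fragment length show the surroundings with reads that the rule did not use. The 12291 listed windows more than 600 and up to 1500 bp from the nearest run had medians of 42 knockout and 12 wildtype counts. Their log2 ratio was 1.02 (1.01 to 1.04), against 0.27 over all listed autosomal windows, and 83.6% were higher in the knockout library, against 56.1%. Around the windows with 1 wildtype count the means directly beside were 37.3 counts in the knockout library and 1.60 in wildtype, at 900 to 1000 bp 48.2 and 18.1, and at 2900 to 3000 bp 57.5 and 36.9. Those values include silent windows among the neighbours and follow the same course as around the silent runs. Each of these means is taken over listed windows, and 83.7% of positions beside a run but 14.9% of those 3 kb away were listed.

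**Figure D3:**
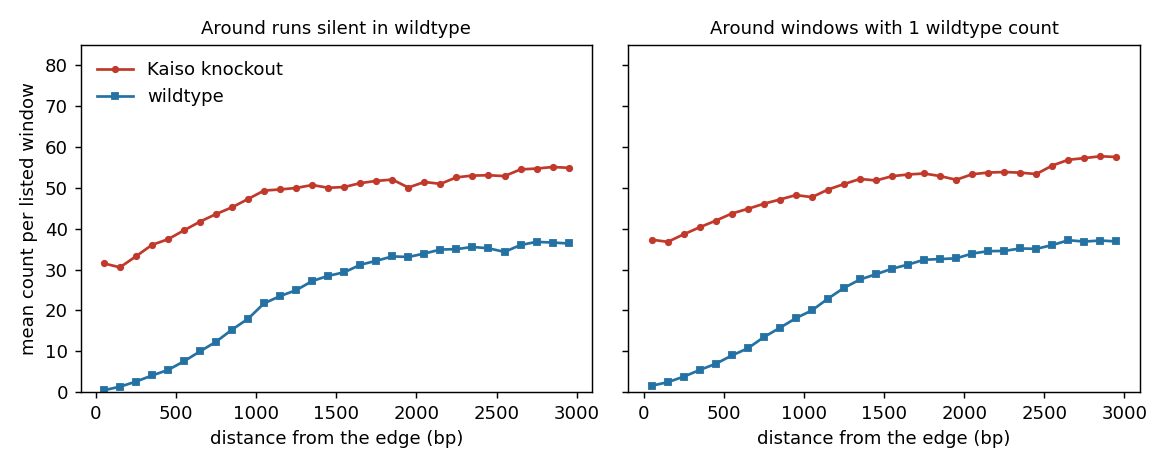
Mean knockout (circles) and wildtype (squares) counts per listed window against the distance from the edge of the runs (left) and of windows with 1 wildtype count and at least 20 knockout counts (right). The knockout lies at 31.5 and wildtype at 0.485 beside the runs, and at 37.3 and 1.60 on the right; the curves have the same course in both panels.

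Runs lay near gene ends more often than listed windows did. Of the 4026 runs 794 (19.7%, 18.5 to 21.0%) were within 1 kb of either end of a protein-coding gene, against 5.31% of listed windows of the CpG range (5.26 to 5.36%). Counted singly, 20.1% of silent windows were. Windows with knockout counts in the range of the silent ones and at least 20 wildtype counts were there in 4.001% of cases, and those with 1 wildtype count in 17.6%. A further 1250 runs (31.0%) lay deeper inside a protein-coding gene, where 47.0% of listed windows were. Another 467 (11.6%) lay in other annotated genes and 1515 (37.6%) outside all of them, against 8.87% and 38.8% of listed windows. Runs near gene ends had 2 or more windows in 35.3% of cases, and those outside genes in 27.8%. Their windows averaged 4.56 and 4.03 CpGs and had medians of 29 and 31 knockout counts. The runs had 2700 different nearest protein-coding genes, and 476 of them (11.8%) lay more than 100 kb from any. The farthest were 1 window 2177515 bases from Pik3c3 with 23 knockout counts, 1 window 1709035 bases from Efnb2 with 46 and 1 window 1624348 bases from Tenm2 with 28.

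Measured from start sites the windows formed a zone about 1 kb to either side. Start sites were known for 16457 protein-coding genes on 18 autosomes, which hold 5758 of the silent windows. Within 1 kb of a start site lay 878 of these (15.2%), against 2.24% of listed windows, and 4.99% of the listed windows there were silent (4.67 to 5.32%). Beyond 5 kb the share was 0.575% (0.557 to 0.593%). The highest share of a 250 bp bin was 6.45% (5.41 to 7.62%), between 500 and 750 bp upstream. Right after the start site it was 5.16% (4.36 to 6.06%) and in the bin right before it 4.59% (3.69 to 5.64%), so the highest bin and the bins at the start site overlapped in their intervals. On the upstream side the share was 1.22% between 1500 and 1750 bp, and on the downstream side 1.96%. Listing on p chose the windows counted here, so these shares do not describe windows that were left out of the table.

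**Figure D4:**
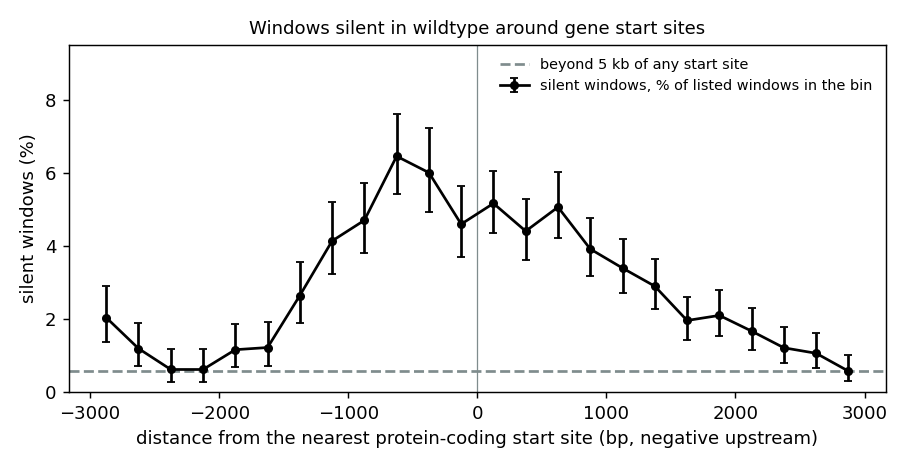
Silent windows as a percentage of the listed windows with 3 to 10 CpGs in 250 bp bins around the nearest protein-coding start site (negative values upstream), with exact 95% intervals. The share reaches 6.45% upstream and 5.16% just after the start site, against 0.575% beyond 5 kb (dashed line).

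Genes were counted as holding a silent window when one lay inside the gene or within 1 kb of it. This was so for 1638 of 18036 autosomal protein-coding genes with a listed window of the range, or 9.08%. Most held few, 782 of them a single one, while 131 held 5 or more and 19 held 10 or more. Longer genes have more chances, and the median length was 33491 bases for the genes with a silent window and 21714.5 for the genes with a listed one. Agap2, which makes a regulator of small GTPases, had the most, with 23 of its 42 listed windows in 10 runs on chr10:127077601-127092300, between 21 and 45 knockout counts each. Hoxa3, whose annotated span of 44009 bp overlaps neighbouring Hox genes, had 21 of 107, with a median of 38 knockout counts and a highest value of 70. Runx1, a transcription factor gene of blood stem cells, had 18 of 181, between 20 and 61, and Ryr1, the calcium release channel gene of muscle, had 14 of 176, between 21 and 45. The others of the first 10 were Pcdhga1 and Pcdhga2 with 17 each, Pcdhga3 and Pcdhgb1 with 15 each, and Pcdhga4 and Pcdhga5 with 13 each. These are protocadherin genes on chromosome 18 that share exons, so the same windows count for several of them.

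Gene lists were compared with that 9.08%, as a description, since neither the lists nor their genes are independent of earlier results of these data. Hox genes, which pattern the body axis, held a silent window in 23 of 37 cases (62.2%, 44.8 to 77.5%). Counted once each, 78 of the 523 listed windows of this list were silent (14.9%), in 40 runs, against 0.737% over all protein-coding genes. Besides Hoxa3 the most were in Hoxb3 (8 windows), Hoxa5 (7, with a median of 49 knockout counts) and Hoxc4 (7). The 7 of Hoxa5 lay within the span of Hoxa3 and count for both genes. Hoxa7, Hoxa9, Hoxa10, Hoxb5 and Hoxd13 were among the 14 without one. Other homeobox, Pax and T-box genes held one in 20 of 77 cases (25.97%), with 7 windows at Irx1, 6 at Six2, a gene of kidney progenitors, 4 at Irx6 and 3 at Gbx2. Forkhead, Gata and Sox genes did so in 9 of 32 (28.1%), with 10 windows at Gata3, 5 at Gata6 and 2 each at Foxc1 and the thymus gene Foxn1. Neighbouring genes share windows, which makes the intervals of clustered lists too narrow.

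Imprinted genes were grouped by the parent whose allele carries the methylation. Where it is the maternal allele, 15 of 25 genes held a silent window (60%, 38.7 to 78.9%). Counted once each, 35 of the 924 listed windows of this list were silent (3.79%), in 23 runs, against 0.737% over all protein-coding genes. H13, a signal peptide peptidase gene whose intron holds the imprinted gene Mcts2, had 7 of 49. The window beside Mcts2, at chr2:152686701-152686800, held 68 knockout counts, and the other 6 lay in chr2:152707501-152708300 near the far end of H13, with between 27 and 41. Airn, a long noncoding RNA gene, had 4 between 37 and 62, Mest, a hydrolase gene, 4 between 32 and 53, and Gnas, a G protein gene, 4 between 23 and 41. Kcnq1ot1, another long noncoding RNA gene, had 3 of 17. Where the methylation is paternal, and so present in sperm, 0 of 7 genes (0 to 41.0%) and 0 of 198 windows were silent. Only the genes and 1 kb around them were counted, so a methylated region farther from its gene is not covered. The count of 0 allows a share of windows of up to 1.52%, which includes the 0.737% over all protein-coding genes. With 1 to 5 wildtype counts and at least 20 knockout counts there were 27 of the 198 (13.6%). In the paternal list the median listed window held 71.5 knockout and 40 wildtype counts, and in the maternal list 51 and 8.

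**Figure D5:**
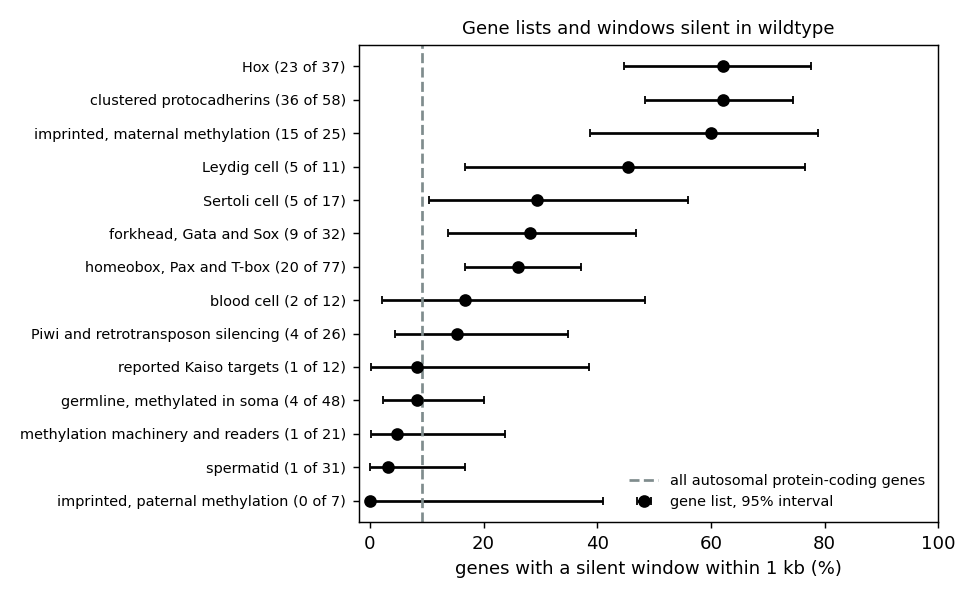
Percentage of the genes of each list with a silent window inside the gene or within 1 kb, with exact 95% intervals and the numbers of genes; the dashed line is the 9.08% of all autosomal protein-coding genes. Hox (62.2%), clustered protocadherin (62.1%) and maternally methylated imprinted genes (60%) lie to the right of the line, and germline genes (8.33%) beside it.

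Germline genes whose promoters somatic cells methylate lay near the share of all genes when genes were counted, but not when windows were. Of 48 such genes 4 held a silent window (8.33%, 2.32 to 19.98%), against 9.08% of all genes. These were Mov10l1 and Tdrd6, a Tudor domain gene of germ granules, with 6 windows each, and Sycp3, of the synaptonemal complex, and Ctcfl with 1 each. Dazl, Ddx4, Brdt and Mael had none. Counted once each, 14 of the 987 listed windows of this list were silent (1.42%), in 6 runs, against 0.737% over all protein-coding genes. With 1 to 5 wildtype counts and at least 20 knockout counts, 9.63% of the windows of this list were found, against 3.94% of those of all protein-coding genes, so low wildtype counts without a 0 were present there. In the Hox list that share was 35.6%, and in the maternally imprinted list 30.4%. Piwi pathway and retrotransposon silencing genes held a silent window in 4 of 26 cases (15.4%, 4.36 to 34.9%), with Rnf17 (3 windows) and Setdb1 (2) beside Mov10l1 and Tdrd6. Spermatid genes did so in 1 of 31 (3.23%, 0.0816 to 16.7%), with a single window of 21 knockout counts in Zpbp. The methylation machinery and its readers did so in 1 of 21 (4.76%, 0.120 to 23.8%), which was again Ctcfl. Each of these intervals includes the 9.08% of all genes. Counted once each, 17 of 683 listed windows of the Piwi list were silent (2.49%), those of Mov10l1 and Tdrd6 among them. In the spermatid list 1 of 369 was silent (0.271%) and in the methylation machinery list 1 of 743 (0.135%), against the same 0.737%.

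Clustered protocadherins, whose alternative exons give neurons their surface identity, held silent windows in 36 of 58 cases (62.1%). Counted once each, these were 25 windows of 958 (2.61%), against 0.737% over all protein-coding genes. Genes of somatic testis cells were few in number. Sertoli cell genes held one in 5 of 17 cases, among them Nr5a1 (6 windows, between 20 and 49 knockout counts), Vim (4), Dhh (4) and Amh (2). Leydig cell genes did so in 5 of 11, with Nr5a1 again, Lhcgr, the receptor of luteinizing hormone (3), Insl3 (2) and Hsd17b3 (2). Blood cell genes did so in 2 of 12, with 4 windows at Spi1 and 3 at the alpha globin gene Hba-a2. Among those without one were Wt1, Gata4, Dmrt1 and Fshr of the Sertoli list and Star, Cyp11a1 and Cyp17a1 of the Leydig list. Ptprc and Cd3e of the blood list had none either. For Sertoli, Leydig and blood cell genes the shares were 29.4% (10.3 to 56.0%), 45.5% (16.7 to 76.6%) and 16.7% (2.09 to 48.4%). These intervals were wide, and only that of the blood list includes the 9.08% of all genes. Counted once each, 4.21%, 5.51% and 5.93% of their listed windows were silent, against 0.737% over all protein-coding genes. The windows of Nr5a1 count in both the Sertoli and the Leydig list. The part of a changed mix of cells in the silent windows was not tested. Of the reported Kaiso targets 1 of 12 held silent windows (8.33%, 0.211 to 38.5%), against 9.08% of all genes. It was Hic1, a tumour suppressor gene, with 7 windows between 21 and 28 knockout counts. These 7 were 3.26% of the 215 listed windows of this list, against 0.737% over all protein-coding genes.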

How the data were processed

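Captured testis DNA of 1 Kaiso KO and 1 wildtype mouse sample was analysed from 1 table of 100 bp windows. Bowtie2 2.2.6, edgeR and the mm10 build are named in the submitters' processing notes, and the column names are those of MEDIPS, per the file headers. Fragments were sheared to 200 to 400 bp, per the labels' protocols. The deposited count is a whole number of reads per window, and the deposited RPKM is that count divided by window length and by library reads, which gave the library sizes of 98549116 knockout and 87710791 wildtype reads. The table also holds the authors' relative methylation score, a value with no unit given, the CpG number, the authors' log2 fold change (wildtype over knockout) and a deposited p-value. That p-value was below 0.05 in every listed window and equal to the adjusted one. Another 10 columns of values per sample or group were not used here. Read extension, duplicates and multiple alignments are not given in the sources used here, so reads of repeated sequence may be shared between copies.

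Python 3.11.15 with pandas 2.3.3 and scipy 1.17.1 was used. Members were found by the rule in the first paragraph of the results. The members and lists were chosen with earlier results of these data known. Ratios are knockout over wildtype per library read. Sums over windows were divided by 4 to approximate fragments before exact 95% intervals were computed, and the intervals do not cover PCR duplication or differences between mice. The floor was 3 counts per window and 3 fragments per run. Gene spans came from GRCm38.p6 without strand, and start sites from its promoter table, which covers 18 autosomes here. The CpG number equalled the count in the promoter sequence in all 8303 windows that could be compared. Named were the 10 longest runs, the 5 with the highest mean count, the 5 highest windows, the 3 runs farthest from genes, the 10 genes with the most silent windows and up to 4 per list, and further genes were named after their values were seen. Finding of members, runs and gene ends was tested on simulated data. Other limits, joins, distances and scalings were tried.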

Additional observations from a re-analysis of the deposited data

How the results depend on the processing

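Alternatives to the limits moved the counts most. With up to 1 or up to 2 wildtype counts 10947 or 18528 windows met the rule in place of 5956, with at least 30 knockout counts 3136 did, and with 5 to 10 CpGs 1971. The number of runs was then 7586 with up to 1 wildtype count and 2192 with at least 30 knockout counts. The longest run, 800 bp, became 1500 bp at Agap2 with gaps of up to 100 bp joined and 2000 bp near Foxc1 with gaps of up to 500 bp. The share of runs at gene ends was 10.6% within 500 bp, 38.4% within 5 kb and 30.1% with all annotated genes, against 2.81%, 19.3% and 11.3% of listed windows. It was 21.7% with at least 15 and 17.8% with at least 30 knockout counts, and 18.5% with up to 1 wildtype count. With that limit the mean CpG number was 4.26. The log2 ratio beside the runs was 3.71 on the scale of the authors' fold changes, 3.31 with autosomal counts, 2.93 when scaled to the windows with at least 5 CpGs, 4.93 within 200 bp and 2.45 within 1000 bp. The other 12 alternatives moved their value by less than 1.5 times for counts, or within the counting interval. Depth limits a count of 0, which allows up to 3 wildtype counts in a window. No paired analysis was possible because each genotype had 1 library, and for the same reason no library could be left out.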

Other observations

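On the sex chromosomes, which the rule leaves out, the same limits were met by 274 of 23185 listed windows of X (1.18%, 1.05 to 1.33%) and by 55 of 7856 of Y (0.700%, 0.528 to 0.910%). Among the autosomes the share ran from 0.506% on chromosome 12 (0.436 to 0.584%) to 0.945% on chromosome 11 (0.860 to 1.04%), with silent windows on each of the 19.

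Of 919 autosomal microRNA hairpins in the RefSeq table (GRCm38.p6), 4 were found to overlap a silent window. The 919 come from all autosomes, but overlaps were sought only on the autosomes that the promoter table covers. The 4 are therefore a lower limit. Hairpins were counted whether or not a listed window lay on them. The 4 of 919 can therefore not be set against the 0.730% of listed windows that were silent. Their mature forms are shown to identify them, with the seed, bases 2 to 8, in capitals, and no seed occurs more than once.
mmu-miR-199a-5p: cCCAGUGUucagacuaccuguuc
mmu-miR-199a-3p: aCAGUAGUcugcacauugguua
mmu-miR-210-3p: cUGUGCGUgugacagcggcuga
mmu-miR-210-5p: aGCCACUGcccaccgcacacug
mmu-let-7e-5p: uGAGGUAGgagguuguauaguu
mmu-let-7e-3p: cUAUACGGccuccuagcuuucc
mmu-miR-6991-5p: uGGAGAACagggacugggccug
mmu-miR-6991-3p: gCAGCCCUuuguucuucuccag
The windows at Mir6991 on chromosome 19, Mirlet7e on chromosome 17, Mir199a-2 on chromosome 1 and Mir210 on chromosome 7 held 56, 52, 45 and 31 knockout counts and 0 wildtype counts. The first of them held 10 CpGs and the others 4 or 5.

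Promoters of the RefSeq table run from 250 bases before to 50 after the start site, and 177 of them, of 168 genes, overlapped a silent window. Their median CpG number was 10, against 7 in the 4421 promoters overlapping a listed window with 3 to 10 CpGs and 7 in all 31396 promoters. The Kaiso motif CGCG, which reads the same on both strands, was found in 41.2% of the 177 (33.9 to 48.9%), in 23.8% of the 4421 (22.6 to 25.1%) and in 38.5% of all promoters of the table. The Kaiso motif TCCTGCNA, searched on both strands, was found in 3.95% of the 177 (1.60 to 7.98%), in 6.06% of the 4421 and in 4.99% of all promoters. The sets of promoters differ in CpG number and were not matched on it, and CGCG itself is made of CpGs. Whether the shares differ beyond the CpG number was not tested. The matches describe the letters of whole promoters, which reach beyond the silent windows, and not binding.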
